A study of Mus musculus with 6 samples.

Results

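The differentiating skeletal muscle cells of the E10.5 library were examined here. They were chosen by their own UMIs of 6 muscle genes. They are the 159 cell barcodes with at least 500 genes, at most 10% mitochondrial UMIs and a UMI in at least 3 of Mylpf, Tnnc2, Acta1, Myog, Myl1 and Ttn. A UMI is a molecular identifier that marks 1 captured transcript. Of 6422 deposited E10.5 barcodes, 6259 were kept by the same limits on genes and mitochondrial UMIs, so the 159 muscle barcodes made up 2.54% of them (95% exact Clopper-Pearson interval 2.16 to 2.96). All 6 libraries of the series together held 28621 kept barcodes.

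The series profiled XX gonads of ICR mice at E10.5, E11.5, E12.5, E13.5 and E14.5, and gonad somatic cells differentiated from ES cells in culture for 6 days, by droplet single-cell RNA sequencing of transcript 3′ ends. Each stage and the culture had 1 library. The E10.5 library is labelled as in vivo gonad tissue, dissociated with papain, and the labels used here name no mutation and do not say how many embryos it holds. All comparisons below lie within that 1 library, whose cells are not replicates, so no test was run and each 95% interval covers counting error only.

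Skeletal muscle of the trunk forms from the somites. Progenitors of the dermomyotome carry the transcription factor Pax3, and cells entering the myotome switch on the myogenic bHLH factors Myf5, Myod1, Myog and Myf6, which bind E-box sequences together with E proteins and act with MEF2 factors. Differentiating myoblasts then leave the cell cycle, build sarcomeres from thick and thin filaments anchored at Z-discs, and fuse with one another through the membrane proteins Mymk and Mymx. Skeletal muscle is not a component of the gonad itself.

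The label was checked against markers that the choice of barcodes did not use. Myod1, Myf5, the acetylcholine receptor subunit Chrna1 and the muscle cadherin Cdh15 were all at least 2-fold higher in the muscle barcodes than in the other 6100 kept E10.5 barcodes. Each lay under 10 counts per 1000000 UMIs (CPM) in those others. Each thus passed the level filter of 10 CPM only through the muscle barcodes, which largely fixed its direction. Cardiac markers summed to 30.9 CPM in the muscle barcodes and 45.6 in the others. Nkx2-5 and Nppa were at 0 in the muscle barcodes, and the rest of the 10 cardiac markers had UMIs there. Of the macrophage markers, 5 of 6 were at 0. Smooth muscle markers went the other way, at 2236 CPM against 156 CPM, nearly all from Acta2 and Tagln. The intermediate mesoderm and gonad markers summed to 33.5 CPM in the muscle barcodes and 153 CPM in the others, of which 6.39% had a UMI in 3 or more of these 9 genes.

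Promoters are shown first because several genes of the muscle lists carry the E-box CAGCTG close to their start. Of 4 genes chosen after the motif search, Chrna1 and Chrng encode subunits of the muscle acetylcholine receptor, Mylpf encodes the fast regulatory light chain of myosin and was one of the 6 choosing genes, and Klhl41 encodes a sarcomere-associated kelch protein. Each sequence holds the 200 bases before the RefSeq start in build GRCm38.p6, read 5′ to 3′ on the gene's strand, with CAGCTG in capitals and, in Klhl41, a MEF2 motif in capitals as well. The regions are chr2:73580339-73580538 on the minus strand for Chrna1, chr1:87205611-87205810 on the plus strand for Chrng, chr7:127211408-127211607 on the plus strand for Mylpf and chr2:69669920-69670119 on the plus strand for Klhl41.
Chrna1: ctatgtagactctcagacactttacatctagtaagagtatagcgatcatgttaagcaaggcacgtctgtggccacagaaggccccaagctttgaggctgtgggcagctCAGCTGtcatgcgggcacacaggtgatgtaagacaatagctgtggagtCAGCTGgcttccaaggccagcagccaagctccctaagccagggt
Chrng: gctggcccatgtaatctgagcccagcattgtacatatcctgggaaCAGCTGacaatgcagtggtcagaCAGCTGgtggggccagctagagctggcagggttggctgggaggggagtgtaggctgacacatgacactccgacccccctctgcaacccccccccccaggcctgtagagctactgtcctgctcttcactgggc
Mylpf: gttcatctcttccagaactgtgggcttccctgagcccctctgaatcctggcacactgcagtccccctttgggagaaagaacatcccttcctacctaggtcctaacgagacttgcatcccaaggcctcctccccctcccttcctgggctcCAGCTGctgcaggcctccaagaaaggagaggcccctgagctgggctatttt
Klhl41: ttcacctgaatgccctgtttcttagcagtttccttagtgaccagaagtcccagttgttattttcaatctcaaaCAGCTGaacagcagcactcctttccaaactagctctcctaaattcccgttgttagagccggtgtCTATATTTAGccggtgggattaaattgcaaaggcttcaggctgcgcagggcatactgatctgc

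The copies of CAGCTG began 92 and 44 bases before the start of Chrna1, 155 and 132 before that of Chrng, 51 before that of Mylpf and 127 before that of Klhl41, whose MEF2 motif began 63 bases before its start. Over the 250 bases before each start, on both strands, CAGCTG stood in 3979 of 27025 RefSeq genes (14.7%). It stood in 866 of the 6416 genes compared here that had a promoter entry (13.498%), in 130 of 521 at least 2-fold higher in the muscle barcodes (25.0%) and in 64 of 489 at least 2-fold lower (13.1%). Among the 87 contractile, coupling and receptor genes with an entry, 33 carried it (37.9%). That set took in the sarcomere assembly list and kept the choosing genes of its lists. Of the 6 choosing genes, 3 carried CAGCTG. The looser pattern CANNTG, of which CAGCTG is 1 form, stood in 59.2% of the genes compared and 70.6% of the higher ones. The MEF2 motif stood in 1.84% of the genes compared, 5.76% of the higher ones and 13.8% of the contractile, coupling and receptor genes. A match describes the letters in the window and is not evidence of binding.

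Most kept barcodes had none of the choosing genes, and the others were spread from 1 to 6. Of the kept E10.5 barcodes, 5502 had a UMI in none of the 6 genes, 542 in 1, 56 in 2, 25 in 3, 26 in 4, 37 in 5 and 71 in 6. The median summed UMIs of the 6 genes were 3 at 2 genes, 6 at 3 genes, 27 at 4 genes, 52 at 5 genes and 209 at 6 genes. Just inside the limit, at 3 genes, the sum ran from 3 to 35 UMIs, and just outside, at 2 genes, from 2 to 36, so barcodes on both sides of the limit overlapped in these values. The cardiac-type actin Actc1, which was not used, had a UMI in 46.4% of barcodes at 2 genes, 72.0% at 3 and 100% at 6. Myod1 had one in 17.9%, 24.0% and 59.2% of those barcodes.

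**Figure D1:**
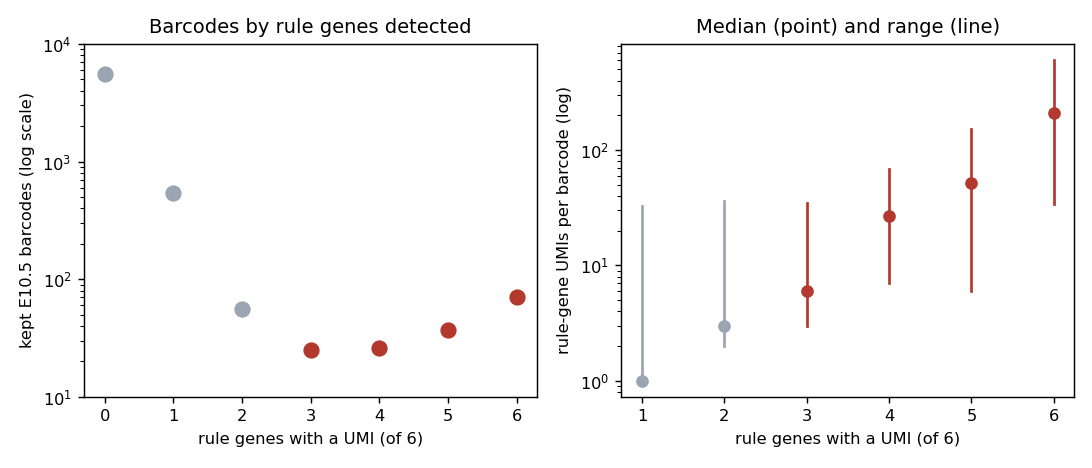
Left, number of kept E10.5 barcodes (log axis) by how many of the 6 choosing genes had a UMI; right, summed UMIs of those genes per barcode (log axis), with points for medians and lines for ranges, and red for the 159 muscle barcodes in both panels. Counts drop from 5502 barcodes with no such gene to 25 with 3 and rise to 71 with all 6, whose median sum is 209 UMIs.

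The levels of the choosing genes are a description, since they picked the barcodes. Mylpf stood at 5301 CPM in the muscle barcodes and 8.70 CPM in the others, with 0 to 269 UMIs and a median of 25 per muscle barcode. Myog, the bHLH factor tied to terminal differentiation, had 1960 CPM, a median of 12 UMIs and a highest value of 158, and it was detected in 143 of 159 barcodes. The giant sarcomere protein gene Ttn was detected in 117, the skeletal actin Acta1 in 109, the fast troponin C gene Tnnc2 in 135 and the essential light chain gene Myl1 in 133. In endothelial barcodes, which should lack these genes, 8.15% had a Mylpf UMI and 1.63% a Myog UMI at a median depth of 11851.5 UMIs, against 7721 UMIs in the muscle barcodes.

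Barcodes that met the same condition were nearly restricted to E10.5. None of 2720 kept barcodes met it at E11.5, which allows a share of up to 0.110%, none of 3249 at E12.5 (up to 0.0923%), 1 of 4566 at E13.5, none of 4308 at E14.5 (up to 0.0696%) and none of 7519 in the cultured cells (up to 0.0399%). Myog summed over all kept barcodes of a library was 72.1 CPM at E10.5 and lay between 0.0791 and 1.06 CPM in the other 5 libraries. With 1 library per stage, stage and dissection cannot be told apart. Of the muscle barcodes, between 0 and 3 had a sequence that also occurred in each other library.

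Read depth of the muscle barcodes ran from 895 to 57838 UMIs, with 1522625 in all, and their median of 7721 was close to the 6509 of the other kept barcodes. The 6 choosing genes took 1.30% of their UMIs and the thick filament, thin filament and Z-disc lists together with those genes 3.73%, against 0.00216% and 0.124% in the others. When all kept barcodes were clustered without the choosing and contractile genes, 138 of the 159 (86.8%) fell in 1 cluster of 224 barcodes. The 86 other barcodes of that cluster had Myf5 in 52, Pax3 in 45, Myog in 27 and Chrna1 in none. The 21 muscle barcodes elsewhere had a median of 9 UMIs of the choosing genes, against 79 for the 138, and 6 of the 21 were among the highest doublet scores, against 4 of the 138. Doublets were not removed, and the highest scores took in 6.29% of the muscle barcodes and 4.97% of the others.

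Across genes, the muscle barcodes differed from the other kept E10.5 barcodes by muscle genes at very large ratios and by lower levels of S and G2/M phase genes. Of 8129 genes at 10 CPM or more in either sum, a ratio of 2 or more was found for 710 (8.734%) and a ratio of 0.5 or less for 656 (8.07%), with a median log2 ratio of -0.13 over all of them. The barcodes were chosen within this same contrast, so these shares and the list counts that follow are read as a description. A gene under 10 CPM in the other barcodes entered only through the muscle barcodes, so its place among the higher genes was largely fixed by the filter. Taking the mean of each barcode's CPM in place of the sums gave 786 higher and 1112 lower, which moved the higher share of the calls from 52.0% to 41.4%.

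**Figure D2:**
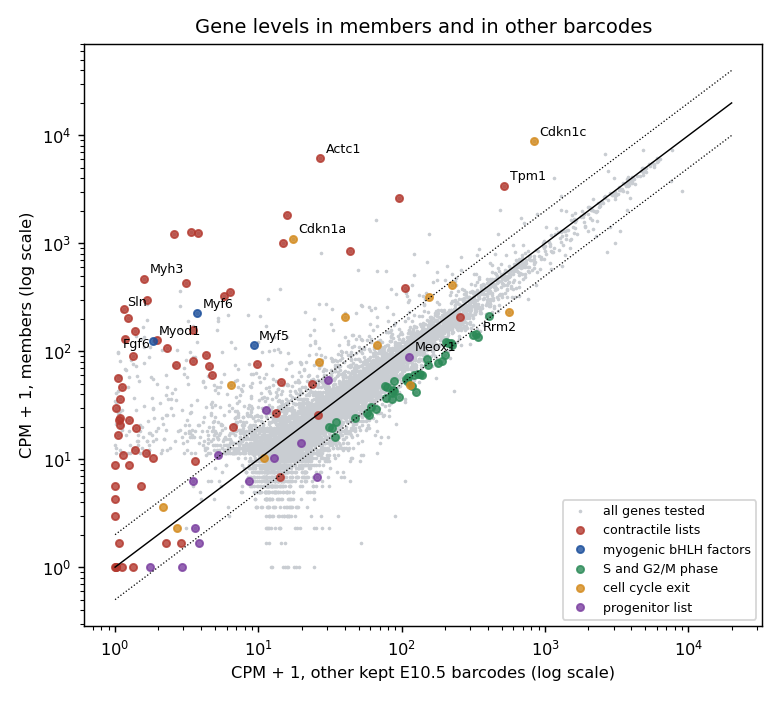
Level of each gene as CPM + 1 in the other kept E10.5 barcodes (x) and in the 159 muscle barcodes (y), both on log axes, with gene lists in colour, a solid line at equal levels and dotted lines at 2-fold. Contractile genes lie far above the line, Cdkn1c and Cdkn1a above it, and the S and G2/M phase genes along or under the lower dotted line.

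All 3 myogenic bHLH factors outside the choosing genes were higher in the muscle barcodes. Myf5 (chr10:107482908-107486134, GRCm38), the factor that marks the earliest myoblasts, had 113 CPM against 8.26 CPM, a ratio of 13.7 (95% interval 11.3 to 16.4). Myod1 (chr7:46376474-46379099), a determination factor, had 124 CPM against 0.848 CPM. Myf6 (chr10:107492853-107494737), also called MRF4, had 225 CPM against 2.75 CPM, an 81.8-fold ratio (66.4 to 101). Per barcode these factors were sparse, with 0 to 7 UMIs of Myf5, 0 to 13 of Myod1 and 0 to 21 of Myf6. They were detected in 76, 67 and 96 of the 159 barcodes. After thinning each barcode to 3000 UMIs, which left 127 muscle barcodes, 5653 others and 182 endothelial ones, the detected share was 26.0% for Myf5, 28.3% for Myod1 and 43.3% for Myf6. It was 1.73%, 0.212% and 0.637% in the others. Each factor was detected in 0 of the 182 endothelial barcodes, where 3 counts over the barcodes would be a share of 1.65%.

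Of the 159 muscle barcodes, 32 held UMIs of all 4 bHLH factors with Myog included, 48 of 3, 41 of 2, 28 of 1 and 10 of none. Myog helped to choose the barcodes, and it was seen in 67 of the 67 barcodes with Myod1, in 72 of 76 with Myf5 and in 93 of 96 with Myf6. Myod1 was seen in 42 of the 76 Myf5 barcodes. Among thinned barcodes, 9 of 33 with Myf5 also had Myod1. At so few UMIs per barcode, a missing factor was not distinguishable from an unsampled one.

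Cofactors of the bHLH proteins were mixed, with 10 of 20 genes above the level filter higher and 2 lower. The shares over all genes compared were 8.734% higher and 8.07% lower. Mef2c, a MADS-box partner of the bHLH factors, had 813 CPM against 26.5 CPM (30.7-fold, 28.3 to 33.3) and a UMI in 129 barcodes. Vgll2, a TEAD cofactor, had 188 CPM against 2.23 CPM and Smyd1, a muscle methyltransferase and myosin chaperone, 102 CPM against 1.14 CPM. Rbm24, a splicing regulator of muscle transcripts, was 42.0-fold higher. Hes6 was 4.44-fold and Eya4 8.71-fold higher. The inhibitors of bHLH dimers were not higher: Id1 had 112 CPM against 161 CPM, Id2 162 against 305 and Id3 642 against 608. Twist1, another inhibitory bHLH gene, was lower at 23.0 CPM against 58.4 CPM.

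Genes of the sarcomere were higher in the muscle barcodes for most genes of the 3 lists that passed the level filter. Outside the choosing genes, 11 of 12 thick filament and M-band genes above the filter were higher, 13 of 14 thin filament genes and 21 of 22 Z-disc and costamere genes. Over all genes compared, here and for the lists below, 8.734% were higher and 8.07% lower. A list gene under 10 CPM in the other barcodes passed the filter only through the muscle barcodes. Its direction was thus largely fixed, and the counts are a description. A further 9, 3 and 5 genes of these lists lay under the filter. The medians over the genes above it were 6.65, 6.58 and 6.20 on the log2 scale, beside -0.13 over all genes compared. Over all genes of each list with a UMI in the muscle or the other barcodes, they were 5.52, 6.06 and 6.14. Myl7, an atrial light chain, was the 1 thick filament gene that was lower, at 5.91 CPM against 13.1 CPM. The thin filament gene within 2-fold was the broadly expressed Tpm3, and the Z-disc gene within 2-fold was Fhl1.

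Among the myosin heavy chains, embryonic Myh3 had 470 CPM against 0.603 CPM, with 0 to 46 UMIs per barcode and a UMI in 80. The slow chain Myh7 had 89.98 CPM and the perinatal chain Myh8 45.3 CPM, both under 1 CPM in the other barcodes. The adult fast chains Myh1, Myh2 and Myh4 had 7, 5 and 0 UMIs in all muscle barcodes, under the level filter.

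The actin and troponin genes held both cardiac-named and slow forms. Actc1, the main actin gene of embryonic muscle, had 6128 CPM against 26.0 CPM, a UMI in 151 barcodes and up to 313 UMIs. Actc1, Acta1 and the smooth muscle actin Acta2 encode near-identical proteins, and how reads that fit several genes were treated is not given in the sources used here, so their separate values are uncertain. Slow troponin I Tnni1 had 1849 CPM against 14.8 CPM and fast troponin I Tnni2 had 72.2 against 3.55. Tnnt2, the cardiac-named troponin T, was 447-fold higher (373 to 540), while cardiac troponin I Tnni3 had 1 UMI. Nebulin (Neb), the ruler of the thin filament, had 377 UMIs in 61 muscle barcodes and 7 in all the others, a ratio of 1585 (762 to 3969).

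At the Z-disc, the alpha-actinin gene Actn2 had 153 CPM against 0.379 CPM, the titin cap gene Tcap 201 against 0.223 and Myoz2, a calcineurin-binding Z-disc protein, 55.2 against 0.0446. Desmin (Des), the muscle intermediate filament, was 19.9-fold higher. Genes for sarcomere assembly were higher in 11 of 12, among them the myosin chaperone Unc45b at 108 CPM against 0.603 and Klhl41 at 80.8 against 0.0893. Bag3 was the exception, at 6.57 CPM against 10.6 CPM.

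The machinery that couples excitation to contraction was higher in 14 of 15 genes above the filter, and the acetylcholine receptor list in 6 of 6. A further 8 and 4 genes of these lists lay under it. Over all genes of these lists with a UMI in the muscle or the other barcodes, the medians were 4.35 and 5.56 on the log2 scale. The receptor genes summed to 7.41 CPM in the other barcodes, so each could pass the filter only through the muscle barcodes and its count follows from that. The calcium release channel gene Ryr1 had 32.2 CPM against 1.05 CPM, the sarcoplasmic calcium pump Atp2a1 135 against 0.580 and calsequestrin 2 (Casq2) 127 against 0.179. Sarcolipin (Sln), a small inhibitor of that pump, had 355 UMIs in 65 muscle barcodes and 5 UMIs in the other 6100, a ratio of 2089 (887 to 6474). Asph was the coupling gene within 2-fold. Among receptor subunits, Chrna1 had 72.2 CPM, Chrnb1 59.1, the fetal subunit gene Chrng 75.5 and Chrnd 10.51, against 0.402, 1.27, 0.335 and 0.112 CPM in the others. The kinase gene Musk, needed for synapse formation, had 3 UMIs in 2 barcodes. Muscle metabolism genes were higher in 10 of 11, with the enolase Eno3 at 788 CPM against 120 and muscle creatine kinase Ckm at 20.4 against 0.0223, where Ckm rested on 31 UMIs against 1 (912-fold, 152 to 37180).

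Both genes of the fusion machinery were present. Mymk, also called myomaker, had 196 CPM against 0.670 CPM and a UMI in 91 barcodes, and Mymx, also called myomerger, 139 CPM against 0.402 CPM and a UMI in 73. Cdh15 (M-cadherin) was 47.8-fold higher. In all, 8 of 11 fusion and adhesion genes above the filter were higher and 2 lower, beside 8.734% and 8.07% of all genes compared. The lower ones were Cdh2 at 22.3 CPM against 57.9 and Cdh11 at 17.1 against 42.2.

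Cell cycle genes were lower, and Cdkn1c and Cdkn1a, which encode inhibitors of cyclin-dependent kinases, were higher. Cdkn1c (chr7:143458339-143461050), the p57 gene, had 8807 CPM against 839 CPM, a ratio of 10.49 (10.3 to 10.7), with up to 545 UMIs and a UMI in 157 of 159 barcodes. Cdkn1a, the p21 gene, had 1108 CPM against 16.3 CPM (67.8-fold, 62.1 to 74.1). Rb1, the retinoblastoma gene, was 8.88-fold higher, and Cdkn1b lay under the level filter with 14 UMIs. The cyclin genes differed among themselves: Ccnd1 had 47.9 CPM against 114, Ccnd2 228 against 557, and Ccnd3 409 against 222.

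None of the 20 S phase genes was 2-fold higher and 14 were 2-fold lower. Of the 20 G2/M phase genes, none was higher and 10 were lower, beside 8.07% lower over all genes compared. Under trimmed-mean scaling (TMM) the lower counts were 9 and 9, and with the mean of per-barcode CPM 17 and 18. The summed level was 2.13-fold lower for S phase (2.03 to 2.24) and 2.03-fold lower for G2/M phase (1.95 to 2.12). Rrm2, a ribonucleotide reductase subunit, had 136 CPM against 338 CPM and Top2a, the topoisomerase of mitosis, 140 against 311. The difference was uneven across barcodes: the summed level of the 40 genes ran from 0 to 11068 CPM per muscle barcode with a median of 999, against a median of 5165 in the others. At 3000 UMIs per barcode, 49.6% of the muscle barcodes and 91.3% of the others had at least 5 UMIs of these genes.

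Signalling genes were mixed, beside shares of 8.734% higher and 8.07% lower over all genes compared. Of 19 genes of the FGF, Wnt, Hedgehog, BMP and TGF-beta list above the filter, 7 were higher and 3 lower, or 6 and 6 with the mean of per-barcode CPM and 6 and 5 after thinning. Fgf6, a growth factor gene of muscle, had 94.6 CPM, with 144 UMIs in 54 muscle barcodes and 2 UMIs in the others, a ratio of 2119 (576 to 17663). Fgf4 had 39 UMIs against 2 (574-fold, 149 to 4906). Myostatin (Mstn), an inhibitor of muscle growth, had 263 CPM against 1.83 CPM, with up to 35 UMIs per barcode. Fst, which encodes the myostatin-binding follistatin, was lower at 10.51 CPM against 24.1 CPM. In the Notch list, 3 of 11 genes were higher, namely the ligand Dll1, the effector Heyl and Rbpj, and Nrarp was lower on 3 UMIs. The Notch counts were 3 higher and 4 lower with the mean of per-barcode CPM, and 3 and 3 after thinning. In the matrix list, 3 of 17 were higher and 3 lower, or 3 and 5 with the mean of per-barcode CPM and 6 and 3 after thinning, with Lama2, a laminin chain of muscle basement membrane, at 29.5 CPM against 3.75.

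Over all genes compared, 8.734% were higher and 8.07% lower. Imprinted genes were higher in 6 of 15, and none was lower. Besides Cdkn1c these were Meg3 at 4030 CPM against 1143, H19 at 1870 against 880, Ndn at 678 against 150, Peg10 at 69.6 against 25.6 and Plagl1 at 91.3 against 41.1. Of 23 Hox genes above the filter, 1 was higher and 7 lower. The lower ones included Hoxa10, Hoxc10, Hoxd9 and Hoxd10, of the posterior groups, and the higher one was Hoxd1 at 15.1 CPM against 2.43. The Hox counts were 1 higher and 5 lower under TMM, and 1 and 10 with the mean of per-barcode CPM. In the nonmuscle cytoskeleton list, 5 of 13 were higher and none lower. Actb had 4038 CPM against 4088 CPM, and the progenitor intermediate filament gene Nes 567 against 48.7.

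The largest ratios outside the muscle lists, named by size, were those of Il17b at 273 CPM against 0.670 CPM (408-fold), Mustn1, a musculoskeletal nuclear protein gene, at 67.6 against 0.179 (379-fold) and Itgb1bp2, the integrin-binding protein melusin, at 65.7 against 0.201 (327-fold). At the other end, the endothelial claudin gene Cldn5 had 1 UMI against 2295 (78.0-fold lower, 13.98 to 3082). The platelet factor gene Pf4 had 3 UMIs against 3984. Aldh1a2, the retinoic acid enzyme of mesoderm, was 6.28-fold lower, Sfrp1 5.51-fold and Twist2 5.30-fold. Next came Bambi at 5.28-fold, Tagln2 at 5.27-fold, Wt1 at 5.13-fold and Prrx1 at 4.65-fold lower.

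Genes of other cell types were mostly low but not uniformly so. Acta2 had 1649 CPM against 65.1 and Tagln 558 against 66.5, both actin-cytoskeleton genes named for smooth muscle. Erythroid markers were lower, at 5472 CPM against 15630 in the others, with 7 of 8 at least 2-fold lower. In the muscle barcodes, 1 barcode with 45.2% erythroid UMIs carried most of this, since the other 158 gave 183 CPM. Among neural tube markers, Tubb3 was higher at 301 CPM against 112, with 104 of its 458 UMIs in 1 barcode. Sox1, Pax6 and Olig2 were at 0. Whether mixed droplets had a part in these values was not tested.

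Paraxial progenitor barcodes, the textbook source of the myotome, were taken as a second comparison. These were 339 Pax3 paraxial barcodes outside the muscle group, with a Pax3 UMI, a UMI in at least 2 of Meox1, Meox2, Dmrt2, Lbx1, Myf5 and Met, and none of the neural genes Sox2 and Sox10. Both comparisons use the same 159 barcodes, and these 339 are among the 6100 above. In the clustering, 263 of them fell in 1 other cluster and 31 in the main muscle cluster. Of 7957 genes compared, 833 (10.47%) stood at a ratio of 2 or more in the muscle barcodes and 592 (7.44%) at 0.5 or less. Myod1 had 124 CPM against 5.44 CPM and Myf6 225 against 16.9, while Myf5, used in the choice of the Pax3 barcodes, had 113 against 71.3. Mef2c was 168-fold higher. Thick filament genes were higher in 11 of 11, thin filament genes in 13 of 14 and acetylcholine receptor genes in 6 of 6, counts to which the filter applies in the same way.

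Progenitor genes are given as values, since Pax3, Met, Dmrt2, Meox1 and Meox2 helped to choose the Pax3 barcodes. Pax3 had 53.2 CPM in the muscle barcodes against 246 CPM, Meox1 88.0 against 360 and Dmrt2 13.1 against 126. Pax7, the related progenitor factor, and En1, a gene of the central dermomyotome, were not used in that choice. They had 8 and 14 UMIs in the muscle barcodes, and entered the comparison only through the Pax3 barcodes, so no direction is read from them. Against all other kept barcodes, Pax3 stood at 53.2 CPM against 29.5, and of the 6 progenitor genes above the filter Meox2 was lower and Cdon higher. Of the cell cycle lists, no gene was higher than in the Pax3 barcodes. Lower were 12 of 20 S phase genes and 14 of 20 G2/M genes, beside 7.44% of all genes in that comparison. Thinned to 3000 UMIs, 97.6% of the Pax3 barcodes had at least 5 UMIs of these genes, against 49.6% of the muscle barcodes. Cdkn1c was 11.9-fold and Cdkn1a 23.5-fold higher in the muscle barcodes.

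The muscle barcodes were not uniform. They were ordered by the contractile share, which is the percent of UMIs from the thick filament, thin filament and Z-disc lists without the choosing genes, and divided into 3 ranges of 53. The share ran from 0.122% to 1.25% in the lowest range, from 1.30% to 3.80% in the middle and from 3.83% to 8% in the highest. These are ranges of a continuous measure and not cell types, with 20 barcodes within 20% of the lower boundary and 22 within 20% of the upper. Depth went down along the order, with median UMIs of 9752, 7495 and 5685, as did the number of barcodes with the highest doublet scores, at 7, 3 and 0. The main muscle cluster held 33, 52 and 53 of them.

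**Figure D3:**
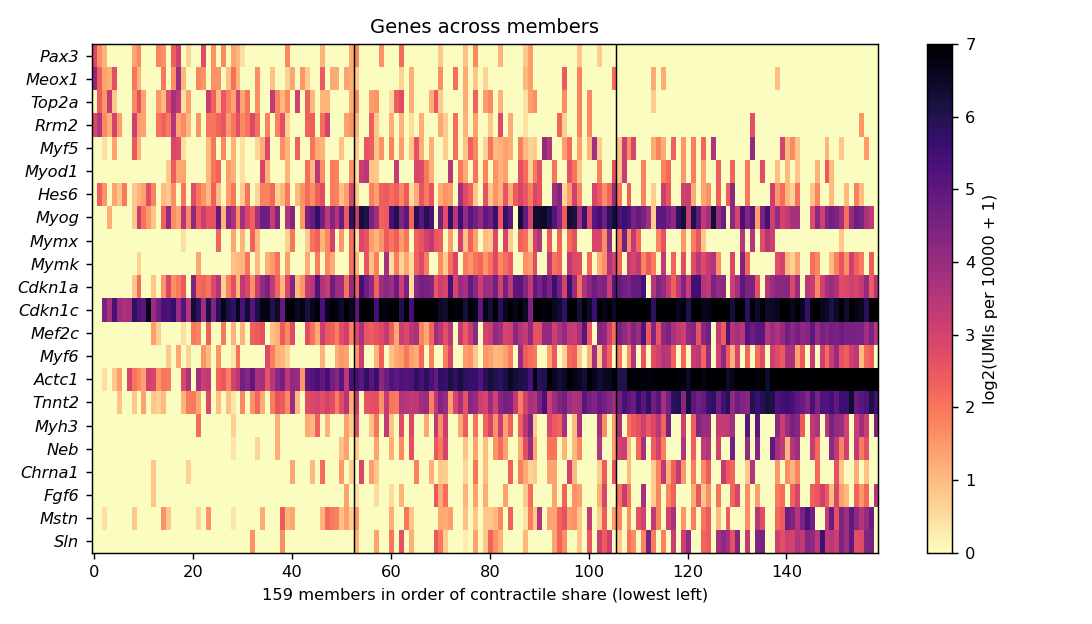
Each column is 1 of the 159 muscle barcodes in order of contractile share (lowest at left, lines between the 3 ranges) and each row a gene, with colour for log2(UMIs per 10000 + 1). Pax3, Meox1, Top2a and Rrm2 are found mostly at left, and Mef2c, Myf6, Chrna1, Fgf6, Mstn and Sln mostly at right; Actc1, Tnnt2, Myh3 and Neb were part of the order itself.

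The progenitor list summed to 335 CPM in the lowest range, 197 in the middle and 48.6 in the highest, and the Notch list to 375, 322 and 152 CPM. Pax3 had 84.99 CPM in the lowest range, 50.6 in the middle and no UMI in the highest, where it was at least 9.33-fold lower than in the lowest (against a floor of 3 counts over the range). Meox1 had 148, 69.1 and 12.2 CPM. The Notch effector Heyl had 35.0, 13.48 and 0 CPM, and Hey1 40.0, 21.9 and 0 CPM. Other genes of these lists were highest in the middle range, among them the ligand Dll1 at 14.999, 28.7 and 18.2 CPM, Notch1 at 16.7, 21.9 and 9.11, Rbpj at 88.3, 96.1 and 54.7 and the progenitor-list gene Cdon at 21.7, 37.1 and 21.3. Of other cell types, sclerotome markers summed to 118, 86.0 and 24.3 CPM and neural tube markers to 607, 351 and 134 CPM. The medians over barcodes were 53.9, 0 and 0 CPM for sclerotome markers and 0, 82.3 and 0 CPM for neural tube markers.

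The bHLH factors followed different courses along the order. Myf5 had 88.3, 133 and 122 CPM and Myod1 88.3, 172 and 103 CPM, and the intervals of the highest-to-lowest ratio took in 1 for both (0.889 to 2.11 and 0.737 to 1.83). Myog, which was used to choose the barcodes, had 1077, 2892 and 1892 CPM, with the middle range highest. Myf6 had 46.7, 211 and 574 CPM, a 12.3-fold ratio of highest to lowest (8.24 to 19.01). The summed level of the 3 factors other than Myog was 3.58-fold higher in the highest range than in the lowest (2.89 to 4.44), or 1.84 on the log2 scale. Within the main cluster alone that log2 value was 1.31.

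Mef2c had 163, 834 and 1959 CPM and Vgll2 75.0, 116 and 525 CPM. The fusion genes differed from each other. Mymk had 61.7, 251 and 340 CPM, while Mymx had 70.0, 231 and 97.2 CPM, with a UMI in 16, 40 and 17 barcodes of the 3 ranges. Sln had 5.00, 130 and 835 CPM, Casq2 3.33, 79.2 and 437 CPM, and Chrna1 16.7, 86.0 and 149 CPM. Among secreted factors, Fgf6 had 3.33, 92.7 and 264 CPM, Fgf4 0, 15.2 and 91.1 CPM, and Mstn 46.7, 123 and 911 CPM.

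**Figure D4:**
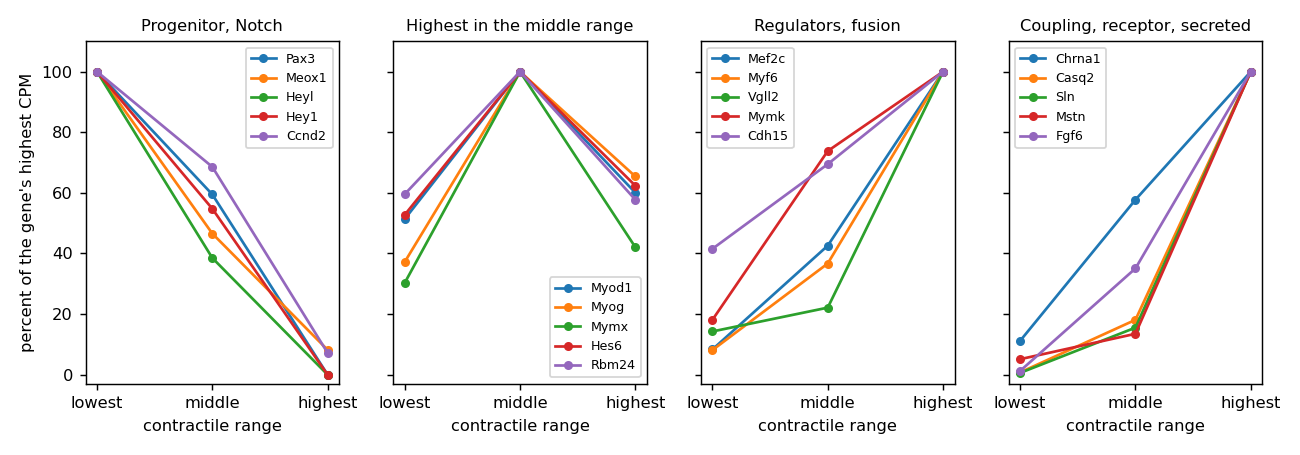
Level of selected genes in the 3 ranges of contractile share, as a percent of the gene's highest CPM among the ranges (y, from 0 to 100). Pax3, Meox1, Heyl, Hey1 and Ccnd2 are highest in the lowest range, Myod1, Myog, Mymx, Hes6 and Rbm24 in the middle, and the other genes shown in the highest.

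Cell cycle genes went down along the order. The S and G2/M phase genes together had 4280 CPM in the lowest range, 2115 in the middle and 328 in the highest. After thinning, 40 of 53 barcodes in the lowest range (75.5%) had at least 5 UMIs of these genes, 18 of 42 in the middle (42.9%) and 1 of 32 in the highest (3.13%). The cyclin gene Ccnd2 had 337, 231 and 24.3 CPM, and Ccnd3 400, 411 and 419 CPM. Cdkn1c had 5969, 9805 and 12180 CPM, so that even the lowest range was above the 839 CPM of the other kept barcodes. Cdkn1a had 575, 1471 and 1425 CPM. The summed level ran from 291 to 11068 CPM per barcode in the lowest range and from 0 to 2959 in the highest, so the ranges overlapped.

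**Figure D5:**
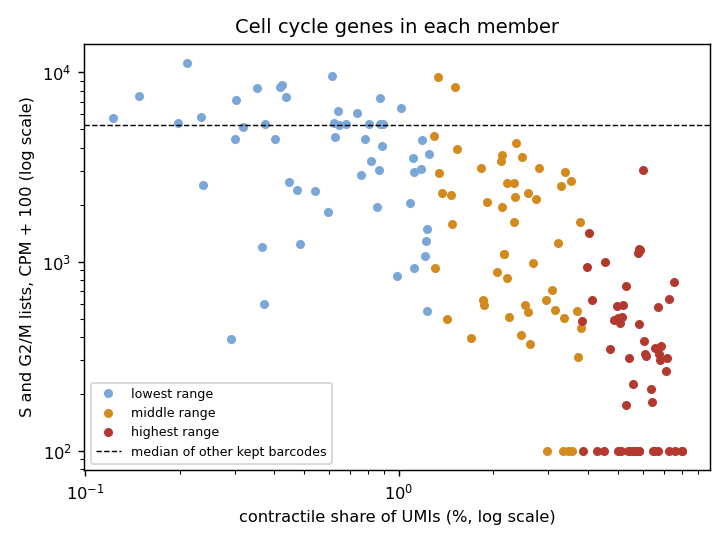
Summed S and G2/M phase genes of each of the 159 muscle barcodes, as CPM + 100 (y, log axis), against its contractile share of UMIs in percent (x, log axis), with colour for the 3 ranges and a dashed line at the median of the other kept E10.5 barcodes, 5165 CPM before 100 is added. The median is 4325 CPM in the lowest range and 216 CPM in the highest, which lies far under the line.

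Across the 127 thinned muscle barcodes, the genes outside the contractile lists that went most with the contractile share, by Spearman rho over 2655 genes, were Acta2 (0.82), Mef2c (0.82), the imprinted RNA Meg3 (0.79), the galectin Lgals1 (0.74), Eno3 (0.74), the muscle phosphoglycerate mutase Pgam2 (0.72) and Myl6 (0.71). Maged2 (0.69), Tubb6 (0.66) and Tagln (0.66) completed the first 10. Those that went most against it were the chromatin-associated Ptma (-0.82), the growth factor Mdk (-0.70), Hmgb1 (-0.70), the histone H2afz (-0.67) and the nucleolar Npm1 (-0.64), followed by Anp32b, Ranbp1, Nasp, Hmgb2 and Pclaf. Mitochondrial, ribosomal protein, haemoglobin and clone-named genes were ranked but not named on either side. Meg3 had 1658, 3838 and 8700 CPM in the 3 ranges and Ptma 6044, 3187 and 841 CPM. All points come from 1 library and each value is a share of the same 3000 UMIs, so the values are a description with no test.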

How the data were processed

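The authors deposited UMI counts per gene and cell barcode. Cell Ranger 3.0.2 and build mm10 are named in the submitters' processing notes, and the labels give no other setting. Of 31053 listed genes, 31011 matched GENCODE vM21. Counts were summed over barcodes and divided by the summed total (counts per 1000000 UMIs, CPM). Ratios carry exact conditional binomial 95% intervals, for genes at 10 CPM or more in either sum and outside the 6 choosing genes. Ratios against 0 use a floor of 3 counts. Scrublet (scanpy 1.11.5) called 1 barcode with its automatic limit, so the 313 highest scores were left out only as an alternative. Clustering used Leiden on 2000 genes and 30 components. Thinning drew 3000 UMIs per barcode and left out 32 muscle and 447 other barcodes. The ratio script was checked on simulated data.

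The barcodes, gene lists and comparisons were chosen with earlier results of these data known. Genes named were members of the lists, the 20 largest ratios in each direction at 50 CPM or more, and the 10 genes that went most with or against the contractile share. Mitochondrial, ribosomal protein, haemoglobin and clone-named genes were left out when the largest ratios and the contractile-share genes were named. The 4 printed promoters, and the genes plotted by range, were chosen after their values were seen. Tmem8c and Rian of the lists were not used here. Promoters come from the RefSeq table of build GRCm38.p6, coordinates of genes from GENCODE vM21 (GRCm38). TMM scaling used edgeR 4.0.16.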

Additional observations from a re-analysis of the deposited data

How the results depend on the processing

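No paired analysis was possible because each group had 1 library, and for the same reason no replicate could be left out. The muscle share of 2.54% was 3.44% with at least 2 of the 6 choosing genes, 2.14% with at least 4 and 1.70% after thinning to 3000 UMIs. It lay between 2.24% and 2.44% when each choosing gene was dropped in turn, an alternative added after seeing the data. At 50 CPM or more in either sum, 285 genes were higher and 137 lower. With no filter on level the counts were 5086 and 1622, and the median log2 ratio of all genes moved by 0.22. The lower count was 1112 with the mean of per-barcode CPM and 1075 after thinning. Of the 656 lower genes, 593 stayed lower with that mean, 446 after thinning and 546 under TMM. Of the 710 higher genes, 626, 637 and 710 stayed higher in the same order. The S and G2/M level was -1.05 on the log2 scale. It was -1.10 after thinning, -1.16 without the highest doublet scores, -1.36 with at least 4 choosing genes, -1.29 with the mean of per-barcode CPM and -1.24 for the main cluster alone, also added after seeing the data. The bHLH difference between the ranges was 1.84 on the log2 scale, 1.36 with at least 4 choosing genes and 1.31 in the main cluster. Against the Pax3 barcodes, 291 genes were higher and 172 lower at 50 CPM. The other alternatives run kept these counts within 1.5 times, and the causes of the moves were not tested. Genes with a few UMIs over 159 barcodes, such as Musk or Myh1, are limited by depth.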
